A study of Homo sapiens with 6 samples.

Results

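The genes described here encode proteins that bind the retinoblastoma protein RB in chromatin complexes, several of them named for that binding. The set of 10 was given by name: ARID4A, ARID4B, KDM5A, RBBP4, RBBP5, RBBP6, HDAC1, HDAC2, SIN3A and SAP30. Each has 1 row among the 22279 transcript IDs of the count table, matched by ID through GENCODE release 29, and all 10 had enough counts to be among the 11712 genes tested. The libraries came from LNCaP, an established androgen-responsive human prostate cancer line, kept for 72 h in CDT, an abbreviation the labels do not spell out, which they use to arrest the cell cycle and which the series calls hormone deficient; before that they grew in medium with hormone. In 3 libraries the cells carried a hairpin labelled shRB, against RB, and in 3 a control hairpin labelled shCON; there is 1 hairpin label per group, so loss of RB and other properties of the shRB cell population cannot be told apart. The labels do not say whether replicates were separate cultures, so the p-values measure the spread between these libraries, which may be technical.

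RB holds E2F transcription factors through its pocket domain and at the same time brings histone-modifying proteins to the promoters that E2F occupies. Many of those partners belong to the SIN3 complex, in which the scaffold SIN3A carries the histone deacetylases HDAC1 and HDAC2, the histone-binding protein RBBP4, the subunit SAP30 and the DNA-binding proteins ARID4A and ARID4B. KDM5A, first found as an RB-binding protein, removes methyl groups from lysine 4 of histone H3. The word repressor is too narrow for the whole set: RBBP5 is a core subunit of the methyltransferases that add the same mark, and RBBP6 is a ubiquitin ligase also found with the machinery that cleaves and polyadenylates mRNA. The comparison of shRB with shCON asks how the mRNAs of these partners differ when RB is depleted.

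Total counts per library were 6115310 to 20091488 in shCON and 9780579 to 10898768 in shRB. RB1 itself read 56.6, 52.7 and 54.7 CPM (counts scaled to library size, with TMM factors) in shCON 1 to 3 and 5.83, 3.82 and 5.41 CPM in shRB 1 to 3, so every library matched its label. The luminal prostate marker KLK3 was present in every library, at 367 to 479 CPM in shCON and 560.0 to 585 CPM in shRB. Among basal, leukocyte and endothelial markers, KRT5, PTPRC, CD3E and all 3 endothelial genes were at 0 in all 6 libraries; basal sums were at most 0.638 CPM, and leukocyte sums, nearly all CD68, were 5.39 to 7.27 CPM in shCON and 5.01 to 5.30 CPM in shRB. The 5 fibroblast markers summed to 18.5 to 23.1 CPM in shCON and 13.6 to 17.5 CPM in shRB, mostly COL1A1, with COL1A2 at 0; their part in the results was not tested. Libraries of both groups departed from their group means along the GC content of the transcript. Across 11674 genes Spearman's rho was 0.68 for shRB 2, with -0.5 for shRB 1 and -0.54 for shRB 3. Among the controls it was 0.52 for shCON 2, -0.51 for shCON 1 and -0.085 for shCON 3. These are descriptions, since genes are not independent replicates. In bulk RNA, a change in the mix of cells and a change per cell cannot be told apart.

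Of the 10 genes, 1 rose in shRB, SAP30, and the other 9 did not pass the test (edgeR quasi-likelihood, Benjamini-Hochberg adjusted p under 0.05 over all tested genes). Over all genes 25.3% were called, 12.8% as higher and 12.5% as lower, so the members' share was no larger than the background. None was called lower; at an unadjusted p under 0.05, 2 members were higher and 1 lower, beside 18.5% and 18.9% of all tested genes, and DESeq2 and limma-voom each also called 1 member higher and 0 lower. DESeq2 called 18.4% of the genes it tested (9.76% higher, 8.64% lower) and limma-voom 25.4% (12.7% higher, 12.6% lower). The median log2 fold change of the members was 0.037, against -0.0062 for all tested genes, and the median size regardless of direction was 0.189 against 0.19. In 2 members, HDAC2 and SAP30, every shRB library lay above every shCON library, and the groups overlapped in the other 8; over all tested genes 41.1% separated, 21.0% in that direction and 20.2% in the other.

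**Figure D1:**
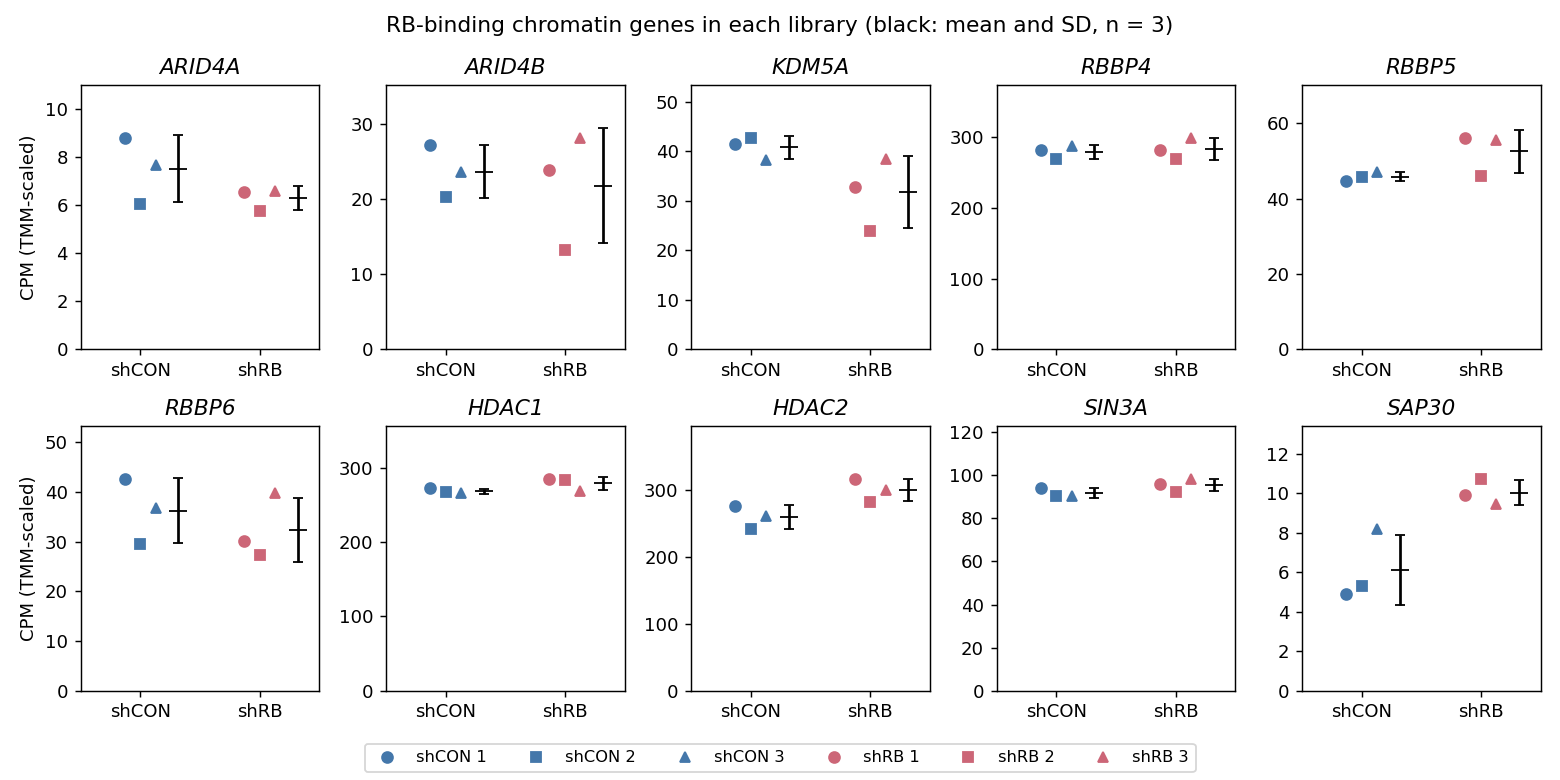
Level of each of the 10 genes in CPM (vertical axes from 0, one scale per gene), with 1 symbol per library and the mean and SD of each group (n = 3) in black. SAP30 and HDAC2 separate the groups, whereas shRB 2 (squares) is the lowest library for ARID4A, ARID4B, KDM5A, RBBP6 and, narrowly, RBBP4.

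The members spanned a wide range of abundance. Per kilobase of the counted transcript, HDAC1 and HDAC2 were the most abundant in shCON, at 126 ± 1.66 and 125 ± 8.48 CPM per kb (SD, n = 3, here and for the levels that follow). RBBP4 followed at 35.2 ± 1.20, SIN3A at 13.6 ± 0.33 and RBBP5 at 10.4 ± 0.26 CPM per kb. SAP30 (5.54 ± 1.60), RBBP6 (5.30 ± 0.97) and ARID4B (4.73 ± 0.70) came next, below all RBBP5 libraries; SAP30 overlapped RBBP6, and RBBP6 overlapped ARID4B. KDM5A (3.79 ± 0.22) and ARID4A (1.27 ± 0.24) were the least abundant, each below all libraries of the gene before it. HDAC1 and HDAC2 likewise overlapped. In shRB the order differed in that SAP30, at 9.06 ± 0.57 CPM per kb, no longer overlapped RBBP6 (4.73 ± 0.95), that ARID4B (4.35 ± 1.53) overlapped KDM5A (2.95 ± 0.68), and that HDAC2 (144 ± 8.02) had a higher mean than HDAC1 (131 ± 4.25), with overlapping libraries. Lengths are those of the GENCODE transcripts, and the stretch the authors counted may differ.

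SAP30, on chromosome 4 (ENST00000296504), encodes a small subunit that links SIN3 to its deacetylases. Its mRNA read 4.91, 5.32 and 8.17 CPM in shCON 1 to 3 and 9.93, 10.7 and 9.47 CPM in shRB 1 to 3. All 3 shRB libraries were above all shCON libraries, but shCON 3, the shallowest library, was near them. SAP30 rose by 0.80 ± 0.18 on the log2 scale (SE; 1.74-fold, 95% interval 0.41 to 1.18; edgeR adjusted p = 0.0054), larger than 97.9% of tested genes in signed order. It rests on few reads, 50 to 109 counts per library; exact 95% Poisson intervals, which cover counting error only, were 3.99 to 5.97 CPM for shCON 1, 6.06 to 10.8 CPM for shCON 3 and 7.69 to 11.5 CPM for shRB 3. Without shCON 1 the log2 fold change was 0.617 and the call was lost (edgeR adjusted p = 0.056), leaving 0 members called (DESeq2 and limma-voom were not run on those 5 libraries) when 15.0% of all genes were called, 7.31% higher and 7.73% lower.

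The promoters were described by exact short words that E2F factors favour, and other forms of E2F site were not searched for. In the RefSeq windows of 300 bases around the start site (GRCh38.p14), both strands were searched for TTCCCGC and TTGGCGC. At least 1 of these words was found for 2 of 10 members, RBBP4 and SIN3A, against 11% of 27305 genes with windows and 12 of 16 genes of a reference list of E2F targets. Both words contain CG, and the members' windows held 12 (ARID4A) to 42 (RBBP4) CG steps. The median over all windows was 14, and only ARID4A was below it. The share of all genes is therefore not that of promoters equally rich in CG. SAP30, the member that rose, had neither word in its window, which does not show that it lacks E2F sites. CDC25A, a phosphatase gene of the reference list that rose from 14.8 ± 0.40 to 29.3 ± 2.37 CPM (SD, n = 3; edgeR adjusted p = 2.7e-05), is shown for comparison. The 250 bases before the start site are printed with the words in capitals, for SAP30 at chr4:173370704-173370953 (plus strand), RBBP4 at chr1:32650958-32651207 (plus strand, the first of 2 windows), SIN3A at chr15:75451691-75451940 (minus strand, the second of 2 windows) and CDC25A at chr3:48188418-48188667 (minus strand).
SAP30: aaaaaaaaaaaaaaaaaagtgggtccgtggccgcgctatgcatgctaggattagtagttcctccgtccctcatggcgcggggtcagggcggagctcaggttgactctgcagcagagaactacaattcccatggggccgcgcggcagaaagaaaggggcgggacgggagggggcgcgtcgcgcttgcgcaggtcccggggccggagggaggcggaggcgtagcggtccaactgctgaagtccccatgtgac
RBBP4: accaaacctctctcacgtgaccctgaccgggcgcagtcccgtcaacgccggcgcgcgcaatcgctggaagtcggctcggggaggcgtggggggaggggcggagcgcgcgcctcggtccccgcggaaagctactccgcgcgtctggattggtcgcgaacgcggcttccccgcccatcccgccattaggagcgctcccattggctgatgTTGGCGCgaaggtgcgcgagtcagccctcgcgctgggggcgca
SIN3A: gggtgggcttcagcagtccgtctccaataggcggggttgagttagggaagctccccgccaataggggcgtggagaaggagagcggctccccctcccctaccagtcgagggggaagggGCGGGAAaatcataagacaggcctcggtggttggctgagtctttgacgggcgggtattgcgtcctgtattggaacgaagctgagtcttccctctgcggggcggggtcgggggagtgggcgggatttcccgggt
CDC25A: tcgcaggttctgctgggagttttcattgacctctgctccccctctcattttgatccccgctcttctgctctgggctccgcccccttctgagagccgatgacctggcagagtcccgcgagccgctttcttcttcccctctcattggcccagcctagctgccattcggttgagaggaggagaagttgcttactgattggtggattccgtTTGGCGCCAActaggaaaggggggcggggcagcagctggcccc
The RBBP4 word lies 43 to 37 bases before the start site of the printed window, the place of the first CDC25A word. Counted from the start site of the second RBBP4 window, the same word is at -191 to -185. The SIN3A word, read on the opposite strand, lies 133 to 127 bases before the start site of the printed window. The first SIN3A window held neither word. The CDC25A window holds TTGGCGC on both strands, in overlapping positions. A match describes the letters only, and neither RBBP4 nor SIN3A passed the test.

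SIN3A, the scaffold of the complex (chromosome 15), read 94.3, 90.4 and 90.4 CPM in shCON and 95.8, 92.4 and 98.3 CPM in shRB. The groups overlapped, and the log2 fold change was 0.06 ± 0.07 (SE), with a 95% interval of -0.101 to 0.215 (edgeR adjusted p = 0.61). Its paralog SIN3B was 79.8 ± 1.40 and 86.95 ± 4.72 CPM (SD, n = 3; edgeR adjusted p = 0.27).

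Neither catalytic subunit passed the test. HDAC1, on chromosome 1, read 272, 267 and 266 CPM in shCON and 285, 283 and 268 CPM in shRB, a log2 difference of 0.05 ± 0.07 (SE; edgeR adjusted p = 0.59). HDAC2, on chromosome 6, read 276, 241 and 261 CPM in shCON and 316, 283 and 300.3 CPM in shRB. Each shRB library was above each shCON library for HDAC2, by 0.21 ± 0.08 on the log2 scale (SE; 1.15-fold, 95% interval 0.042 to 0.371), but the adjusted p was 0.064. It passed without shRB 2 (0.254, edgeR adjusted p = 0.0017) and after a correction for transcript GC content in each library (0.26, adjusted p = 0.00082). Those fits called 33.9% and 39.1% of all genes. HDAC2 did not pass without shCON 2 (0.159, edgeR adjusted p = 0.22) or without shRB 1 (0.168, adjusted p = 0.2), and passed in 4 of 17 alternatives. Taken as a ratio within each library, HDAC1 over HDAC2 was 0.05 ± 0.09 log2 units in shCON and -0.10 ± 0.09 in shRB (SD, n = 3; exact two-sided permutation p = 0.2), and the groups overlapped.

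The ARID4 genes, whose proteins tie RB to the SIN3 complex, were scarce and variable. ARID4A (chromosome 14) read 8.79, 6.03 and 7.68 CPM in shCON and 6.56, 5.73 and 6.57 CPM in shRB, from 47 to 179 counts per library. Its log2 fold change was -0.28 ± 0.17 (SE; 95% interval -0.645 to 0.084; edgeR adjusted p = 0.25). ARID4B (chromosome 1) read 27.2, 20.2 and 23.5 CPM in shCON and 23.9, 13.3 and 28.1 CPM in shRB. The lowest and the highest of the 6 values were both shRB libraries, shRB 2 and shRB 3. With -0.13 ± 0.21 (SE; 95% interval -0.569 to 0.312) ARID4B had no settled direction: it was 0.115 without shRB 2 and -0.35 without shRB 3 (edgeR adjusted p = 0.45 and 0.27).

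RBBP4, a WD-repeat protein that holds histones in SIN3, NuRD, Polycomb and chromatin assembly complexes, read 282, 269 and 287 CPM in shCON and 282, 268 and 299 CPM in shRB. This was the flattest member, at 0.02 ± 0.07 on the log2 scale (SE; 95% interval -0.134 to 0.173; edgeR adjusted p = 0.87), and the interval leaves out any change of 1.5-fold. Its close paralog RBBP7, on the X chromosome, read 177, 173 and 174 CPM in shCON and 239, 241 and 246 CPM in shRB. RBBP7 rose by 0.47 ± 0.07 (SE; edgeR adjusted p = 2e-04), with no overlap between groups. The within-library log2 ratio of RBBP4 to RBBP7 was 0.677 ± 0.042 in shCON and 0.223 ± 0.063 in shRB (SD, n = 3), lower in all 3 shRB libraries; the exact permutation p = 0.1 is the smallest that 3 against 3 allows (adjusted p = 0.2 over 6 pairs). GENCODE lists 6 pseudogenes of RBBP4 and 2 of HDAC1, and 21.5% of the RBBP4 exon bases overlap exons of SYNC on the opposite strand, so the counts of RBBP4 and HDAC1 may include or lose shared reads.

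KDM5A, on chromosome 12, was the member with the lowest log2 fold change. It read 41.5, 42.7 and 38.2 CPM in shCON and 32.8, 23.98 and 38.5 CPM in shRB. The means were 40.8 ± 2.32 and 31.7 ± 7.30 CPM (SD, n = 3), but shRB 3 lay within the shCON range. The log2 fold change was -0.36 ± 0.14 (SE; 95% interval -0.663 to -0.067; edgeR adjusted p = 0.069). With GC correction it was -0.333 and passed (edgeR adjusted p = 0.012), without shRB 3 it was -0.522 (adjusted p = 0.02), and without shRB 2 it was -0.199 and did not pass (adjusted p = 0.098). The paralogs KDM5B (158 ± 2.30 and 168 ± 8.88 CPM) and KDM5C (99.6 ± 6.69 and 106.6 ± 9.27 CPM) had edgeR adjusted p of 0.41 and 0.45. The log2 ratio of KDM5A to KDM5B was -1.96 ± 0.06 in shCON and -2.43 ± 0.27 in shRB (SD, n = 3), lower in every shRB library. The exact permutation p = 0.1 is the smallest possible here (adjusted p = 0.2 over 6 pairs). The difference in this ratio, -0.474, was -0.323 without shRB 2.

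RBBP5, which acts with WDR5, ASH2L and DPY30 in methyltransferases of histone H3 lysine 4, read 44.8, 45.7 and 47.1 CPM in shCON and 56.2, 45.9 and 55.7 CPM in shRB. The shCON libraries were close together, shRB 1 and shRB 3 were above them, and shRB 2 lay among them. The difference of 0.20 ± 0.10 on the log2 scale (SE; 95% interval -0.006 to 0.412; edgeR adjusted p = 0.15) became 0.3 without shRB 2 (adjusted p = 0.0038) and 0.242 with GC correction (adjusted p = 0.0087). Without shRB 1 it was 0.154 and did not pass (edgeR adjusted p = 0.36), and it passed in 3 of 17 alternatives. RBBP5 and ARID4B lie on the stretch of chromosome 1 that follows the largest interval without a tested gene, and the 499 genes tested there had a median log2 fold change of 0.16; its part in the RBBP5 value was not tested. RBBP6, on chromosome 16, read 42.6, 29.4 and 36.8 CPM in shCON and 30.1, 27.4 and 39.7 CPM in shRB, with a log2 fold change of -0.17 ± 0.15 (SE; edgeR adjusted p = 0.44). The RBBP6 groups overlapped, and its value ranged from -0.345 without shRB 3 to -0.019 without shCON 1.

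**Figure D2:**
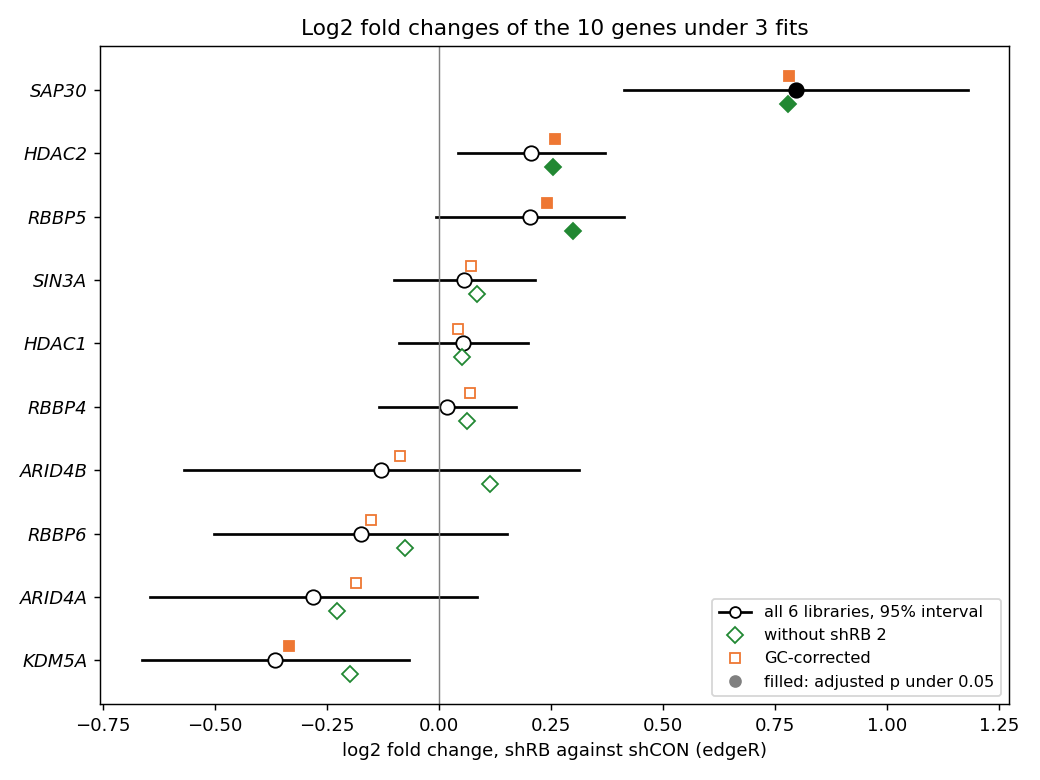
Log2 fold change of each gene (horizontal axis) with its 95% interval from all 6 libraries (circles), without shRB 2 (diamonds) and after GC correction (squares); filled symbols passed an adjusted p under 0.05. SAP30 was filled in all 3 fits, HDAC2 and RBBP5 in 2 and KDM5A in 1.

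The transcripts of the set were mostly poor in G and C. Transcript GC content ran from 37.5% (ARID4A) to 51.8% (SAP30), and 9 of 10 were below the median of tested genes, 49.7%. In shRB 2 the 8 members with the lowest GC content were each below their group mean and the lowest of the 3 shRB libraries, by -0.642 log2 units for ARID4B, -0.377 for KDM5A and -0.223 for RBBP6. HDAC1 (49.4% GC, 0.024) and SAP30 (51.8% GC, 0.096) were above it. The control library shCON 2 was likewise below its group mean in 9 of 10 members, by -0.296 for ARID4A, -0.284 for RBBP6 and -0.216 for ARID4B, KDM5A (0.066) being the exception. Across the 10 members the log2 fold change had a Spearman correlation of 0.47 with GC content and -0.78 with transcript length, against 0.15 and -0.11 across all genes with a length; the members share libraries, and these are descriptions. With GC correction 3 members were called higher (SAP30, HDAC2 and RBBP5) and 1 lower (KDM5A), when 39.1% of all tested genes were called, 19.7% higher and 19.4% lower. The 3 higher members were the same without shRB 2, with 0 lower (KDM5A was nearest, at the adjusted p given above) and with 33.9% of all genes called, 17.5% higher and 16.5% lower.

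**Figure D3:**
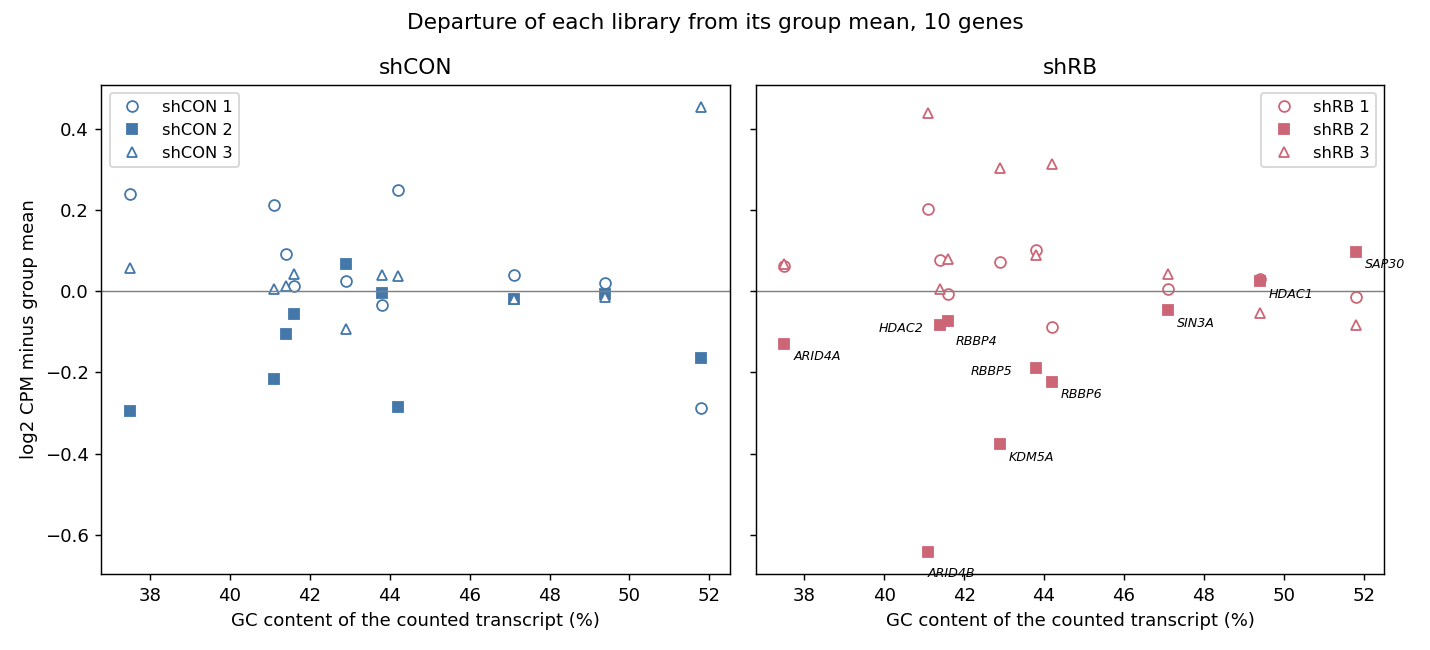
Departure of each library from its group mean in log2 CPM (vertical axis) against the GC content of the counted transcript (horizontal axis) for the 10 genes, shCON left and shRB right, filled squares for replicate 2. In shRB 2 the genes below 48% GC lie under 0, ARID4B lowest at -0.642.

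Genes that work in the same complexes were followed in 9 lists, of which 113 genes other than RB1 were tested; 18 rose, 8 fell and 87 did not pass, 23% called against the 25.3% background, with a median of 0.042. Without shCON 1, 8 rose and 5 fell, 11.5% called against 15.0% of all genes in that fit. In the SIN3 list 2 of 15 rose and 2 fell (median 0.070), 26.7% called. The rises were in RBBP7 and BRMS1 (70.9 ± 3.31 to 94.3 ± 12.7 CPM) and the falls in the O-GlcNAc transferase OGT (103.7 ± 4.77 to 81.3 ± 4.99 CPM) and PHF12 (169.6 ± 6.70 to 145.7 ± 9.03 CPM; SD, n = 3). PHF12 was near the threshold (edgeR adjusted p = 0.046). DESeq2, and edgeR without shCON 1, each called 1 gene of this list lower. SAP30L, the SAP30 paralog, was 22.5 ± 1.65 and 23.8 ± 1.91 CPM (edgeR adjusted p = 0.68). Its log2 ratio, SAP30 over SAP30L, was -1.90 ± 0.50 in shCON and -1.24 ± 0.08 in shRB (exact permutation p = 0.1, adjusted p = 0.2 over 6 pairs), where shCON 3 at -1.325 nearly met shRB 3 at -1.306. BRMS1 and PHF12 were named after their values were seen.

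**Figure D4:**
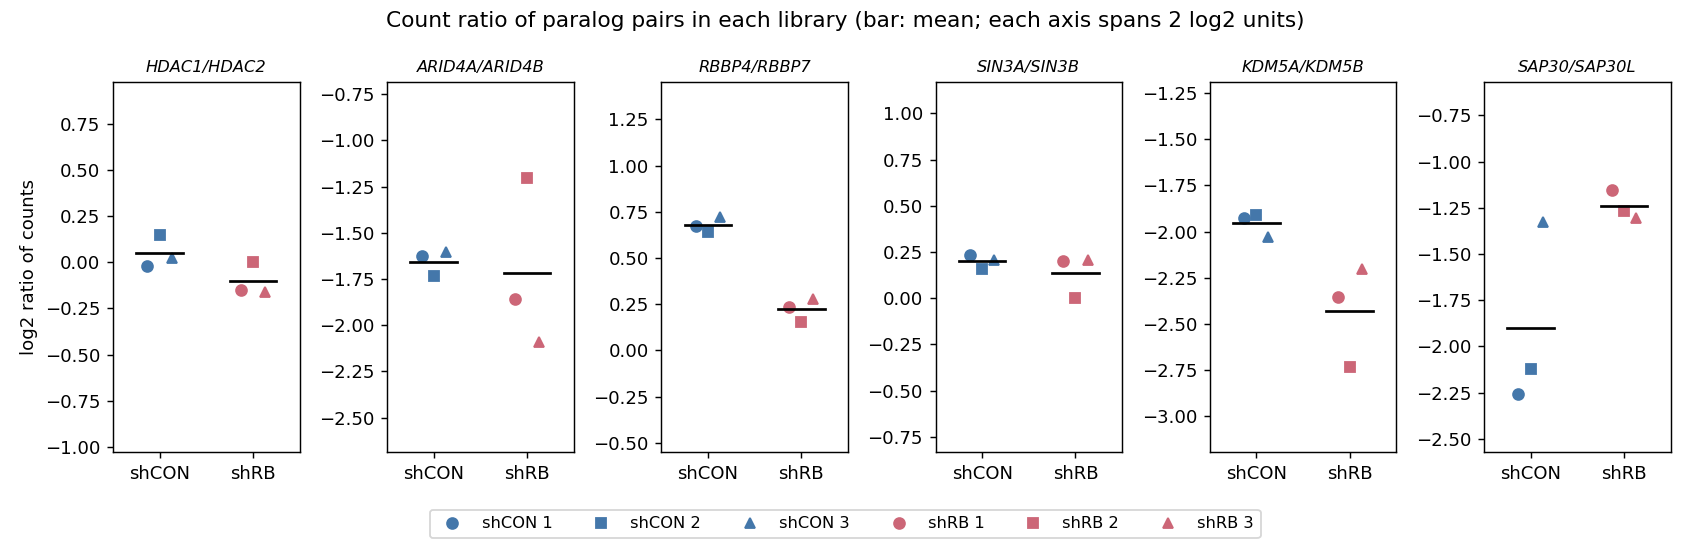
Log2 ratio of counts within each library (vertical axes, each spanning 2 log2 units) for 6 pairs of related genes, with bars at group means. RBBP4 over RBBP7 separates the groups by -0.454, while HDAC1 over HDAC2, ARID4A over ARID4B and SIN3A over SIN3B overlap.

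The NuRD list, a remodelling complex that also holds HDAC1, HDAC2 and RBBP4, had 5 of 13 members higher and 8 that did not pass (median 0.081). The share called was 38.5%, against 25.3% of all genes (12.8% higher). Next to RBBP7 the higher genes were MTA2 (175.0 ± 13.7 to 218.9 ± 19.8 CPM), the ATPase CHD4 (207.7 ± 17.7 to 248.9 ± 10.7 CPM), CDK2AP1 and MTA1, the last 3 named after their values were seen. The edgeR adjusted p was 0.027 for CHD4, 0.029 for CDK2AP1 and 0.042 for MTA1. CHD4 shares 89% of its exon bases with an annotated overlapping gene on the same strand. Without shCON 1 only 1 NuRD gene was called, 7.69% against 15.0% of all genes in that fit. With GC correction 6 were higher and 2 lower, when 39.1% of all genes were called. In the CoREST list, built on the demethylase KDM1A, 1 of 10 fell, the corepressor RCOR1 (92.5 ± 2.14 to 76.1 ± 3.13 CPM; edgeR adjusted p = 0.015), and 9 did not pass, with GSE1 at 204.0 ± 16.6 and 234.0 ± 8.09 CPM (adjusted p = 0.077). The share called there was 10%, against 25.3% of all genes. The RCOR1 call was lost without shCON 1, when no CoREST gene was called by edgeR, beside 15.0% of all genes.

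Among 13 other deacetylase and NCoR genes, 1 fell (7.69%, against 25.3% of all genes called). This was HDAC10 (52.6 ± 2.89 to 40.2 ± 5.91 CPM; edgeR adjusted p = 0.020), which shares 86.7% of its exon bases with MAPK12 on the same strand and is uncertain. The class I enzyme HDAC3 was 56.1 ± 2.79 and 60.1 ± 5.74 CPM (edgeR adjusted p = 0.47), and TBL1XR1 was 745.4 ± 22.4 and 842.9 ± 40.9 CPM (adjusted p = 0.082). The 5 other H3K4 demethylases did not pass (edgeR; 1 at an unadjusted p under 0.05 and 0 by DESeq2), KDM2B with 36.9 ± 1.98 and 42.4 ± 0.44 CPM and KDM1A with 93.8 ± 4.57 and 103.1 ± 4.63 CPM nearest to it. The methyltransferase list of RBBP5 moved both ways, with 3 of 18 higher and 3 lower (median 0.044), 33.3% called against 25.3% of all genes. The falls were in KDM6A, a demethylase of histone H3 lysine 27 (264.3 ± 19.8 to 174.1 ± 23.3 CPM; edgeR adjusted p = 0.00053), and in the large methyltransferases KMT2C (80.6 ± 7.36 to 55.5 ± 9.54 CPM) and KMT2A (34.6 ± 1.59 to 26.6 ± 2.56 CPM), both named after their values were seen. WDR82 rose from 163.7 ± 1.80 to 216.3 ± 10.5 CPM, and MEN1 (42.9 ± 3.01 to 54.8 ± 3.95 CPM) and PAXIP1 (16.5 ± 0.96 to 21.2 ± 1.98 CPM), named in the same way, also rose. The edgeR adjusted p was 0.016 for MEN1 and 0.039 for PAXIP1.

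Complexes other than SIN3 and NuRD that share RBBP4 had the highest median of the chromatin lists, 0.257, with 3 of 10 tested genes higher and 7 that did not pass. The share called was 30%, against 25.3% of all genes (12.8% higher). The higher genes were the chromatin assembly subunit CHAF1A (33.9 ± 1.49 to 52.97 ± 1.03 CPM; edgeR adjusted p = 0.00015), RBBP7 and the Polycomb methyltransferase EZH2 (16.8 ± 2.51 to 23.5 ± 4.48 CPM, edgeR adjusted p = 0.039), EZH2 named after its values were seen. Of 22 other RB-associated chromatin genes, 7 rose and 1 fell (median 0.089), 36.4% called against 25.3% of all genes. Besides RBBP7 the rises included the heterochromatin protein CBX5 (253.9 ± 6.54 to 347.1 ± 20.3 CPM) and the histone H3 lysine 9 methyltransferases SUV39H1 (12.4 ± 0.52 to 19.2 ± 2.95 CPM) and SUV39H2 (19.2 ± 1.51 to 26.2 ± 2.14 CPM), the last pair named after their values were seen. The remaining rises were CBX1, PRMT5 and PHB, named in the same way. The fall was in KMT5B, likewise (49.4 ± 3.12 to 37.9 ± 8.16 CPM, edgeR adjusted p = 0.049). Without shCON 1, 3 genes of this RB-associated list rose and 0 fell, 13.6% called against 15.0% of all genes in that fit. Of 11 genes of the 3′ processing machinery with which RBBP6 is found, 1 rose (9.09%, against 25.3% of all genes called). This was CSTF3 (54.1 ± 2.29 to 66.8 ± 2.24 CPM), whose exons overlap TCP11L1 on the opposite strand over 14% of their bases, and CPSF7 was 79.2 ± 2.82 and 89.9 ± 2.02 CPM (edgeR adjusted p = 0.092).

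The E2F target reference list gives the scale of the response in the same fit. There 16 of 19 genes rose and 3 did not pass, 84.2% called against 25.3% of all genes, with a median of 0.59 (this list was already known to rise in these data). MCM2, a subunit of the replicative helicase, rose from 124.6 ± 0.66 to 224.6 ± 15.5 CPM. Of the 10 RB-binding genes only SAP30, at 0.80, exceeded that median, and the next, HDAC2, was 0.21.

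**Figure D5:**
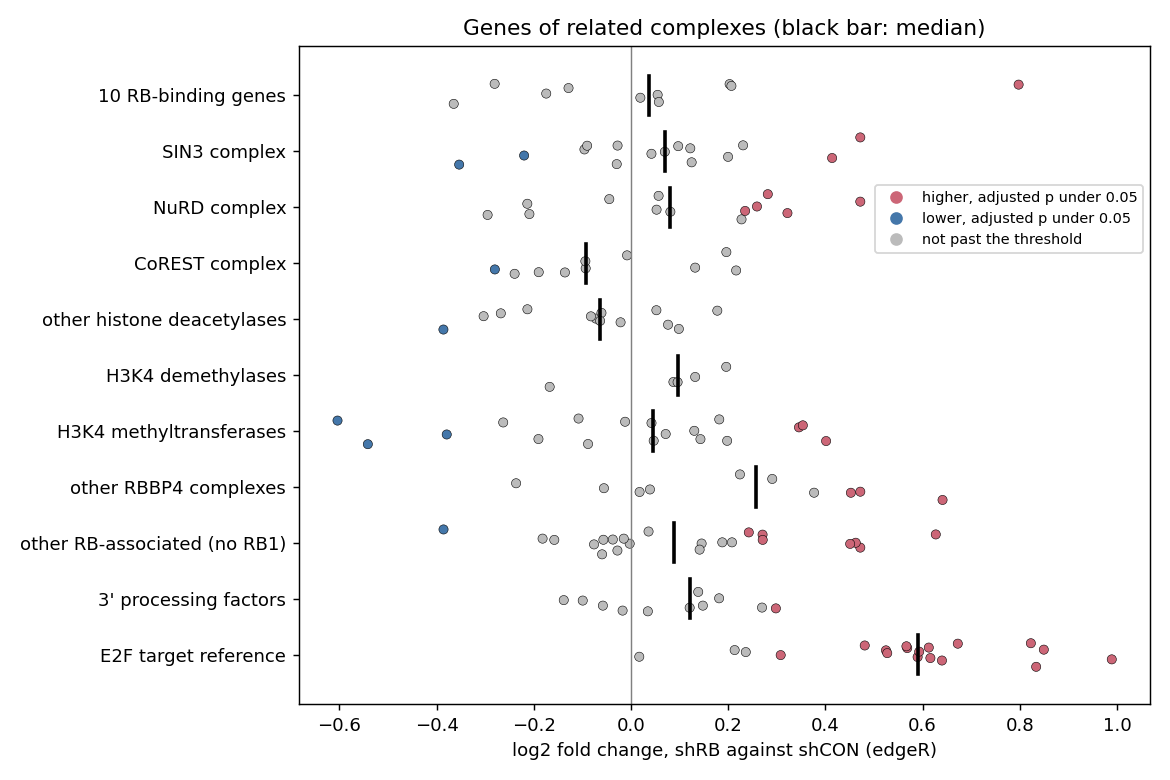
Log2 fold change of every tested gene (horizontal axis) in the 10 RB-binding genes and 10 lists of related genes, coloured by call, with black bars at list medians. The RB-binding genes centre near 0 apart from SAP30, and the E2F targets centre at 0.59.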

How the data were processed

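RNA of 6 LNCaP libraries (3 shCON, 3 shRB) was sequenced after TruSeq library preparation, per the labels' protocols. The table the authors deposited holds unnormalized counts, whole numbers for each transcript and library. Per the submitters' processing notes, STAR, HOMER, edgeR and the build hg19 were involved, with no role or version stated. How reads were assigned, and whether strand was used, is not given in the sources used here. Hence overlapping genes and near-identical copies may share reads. IDs were matched to GENCODE release 29 (22182 of 22279; unmatched IDs held 0.377% of counts), used for names, chromosomes, length and GC only. Promoter sequences are from RefSeq on GRCh38.p14; all 10 members matched. Protein sequences were not analysed here. Some cell type markers are not reported here.

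Counts were tested with edgeR 4.0.16 in R 4.3.3: filterByExpr (minimum count 10, minimum total 15), TMM, quasi-likelihood fit with group as the only term, and Benjamini-Hochberg adjustment at 0.05 over 11712 genes. SE is the log2 fold change divided by the square root of F; intervals use the t distribution with the fit's degrees of freedom. Paralog ratios (counts plus 0.5) were compared by exact two-sided permutation, adjusted over 6 pairs. GC correction used as offsets a lowess curve (span 0.3) on GC of each library's departures from the mean of all 6 libraries. It therefore also removed GC trends between the groups. Named genes were the members, RB1, the 2 smallest p-values of each list and the members' paralogs; others are identified as named after their values were seen. Members and lists were chosen with earlier results of these data known. Data were simulated for shRB against shCON over 11613 genes, with 50 genes changed at each fold and no GC pattern. There the test recovered 24% of genes changed 1.25-fold, 76% at 1.5-fold and 90% at 2-fold, with 11 of 154 calls false. In the real fit 2958 genes were called, so its adjusted threshold was less strict and these rates do not describe it. Chi-square over its degrees of freedom between replicates was 2.25 to 11.3, above sampling noise, so none was a duplicate. Alternatives were DESeq2 1.42.0, limma-voom (limma 3.58.1), robust fitting, other normalizations and filters, GC correction, the replicate number as a block and leaving out each library. Library totals of 6115310 to 20091488 counts limit precision most for SAP30 and ARID4A.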

Additional observations from a re-analysis of the deposited data

How the results depend on the processing

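The SAP30 rise passed in 16 of 17 alternatives (log2 0.617 to 0.987) and was lost without shCON 1 at 0.617. HDAC1, SIN3A, ARID4A and RBBP6 kept their direction and did not pass in any of the 17. HDAC2 (0.159 to 0.261), RBBP5 (0.154 to 0.3) and KDM5A (-0.522 to -0.199) kept their direction and passed in 4, 3 and 5 of them. KDM5A passed without a filter (-0.366), with the replicate block (-0.385), with GC correction (-0.333) and with both (-0.347); HDAC2 at 0.208 with the block, 0.26 with GC correction and 0.261 with both; RBBP5 at 0.242 with GC correction and 0.239 with both. RBBP4 turned to -0.005 with upper quartile factors, -0.004 without shCON 2 and -0.02 without shRB 3 (-0.02 to 0.064 over libraries left out). ARID4B turned to 0.009 without shCON 1 and 0.115 without shRB 2 (-0.35 to 0.115), and the ARID4A to ARID4B ratio to 0.01 without shRB 1 and 0.126 without shRB 3 (-0.317 to 0.126). The SIN3A to SIN3B ratio, -0.0638, turned to 0.003 without shRB 2 (-0.099 to 0.003). Among members, 0 to 3 were higher and 0 to 1 lower with 1 library left out, beside 7.31% to 17.5% and 7.73% to 16.5% of all genes. Without a filter 1 was higher and 1 lower, beside 9.89% and 11.2% of all genes. With the replicate block 2 were higher and 1 lower, beside 18.8% and 19.6%. With GC correction 3 were higher and 1 lower, beside 19.7% and 19.4%. With both, 3 were higher and 1 lower, beside 21.0% and 20.6%. Over the 9 chromatin lists 8 to 28 genes were higher and 3 to 13 lower with 1 library left out, 30 and 17 with the block, 30 and 16 with GC correction, and 32 and 17 with both. Over all genes 863 to 2074 were higher and 912 to 1956 lower with 1 library left out, 2203 and 2294 with the block, 2311 and 2269 with GC correction, and 2460 and 2407 with both. The causes were not tested. The labels do not say whether replicate numbers pair libraries across the groups, and the values do not settle it. Deviations of same-numbered libraries correlated at 0.21, 0.32 and -0.0014. The highest value of any pair was 0.32, for shCON 2 with shRB 2, but shCON 1 correlated best with shRB 3 (0.25). With 3 libraries a group, small changes can go uncalled, although the main fit called some, such as CHD4 at 1.2-fold (edgeR adjusted p = 0.027) and PHF12 at 0.859-fold (adjusted p = 0.046, near the threshold).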
